A study of Mus musculus with 21 samples.

Results

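Galectins are lectins that bind β-galactosides on glycoproteins, and 6 genes of this group (Lgals9, Lgals1, Lgals3, Lgals3bp, Lgals4 and Lgals8) are described here out of 21844 gene symbols with RPKM values (reads scaled to the length of the gene model and to the library's depth). They were chosen by symbol as a gene family, and the family itself was selected on the lower Lgals9 value in shCTCF cells. The contrast between the hairpins is therefore described for these genes, and the fit over all genes is no independent test of them. Of the 6, 5 had a row of their own, while Lgals4 shared a joined row with Lgals6, a near-identical gene, so that the reads of the pair cannot be told apart. The values come from poly(A) RNA of EL4, a T lymphoma line from the mouse strain C57BL/6. All 4 libraries carry a hairpin RNA: 2 an shLuc hairpin against luciferase and 2 an shCTCF hairpin against Ctcf, the zinc-finger protein of insulators and chromatin loops. The labels name no separate hairpins, clones, doses or times, and they do not state separate cultures within a group. The p-values below therefore reflect how far these libraries lie apart, a spread that may be technical. What follows from lower Ctcf and what the hairpin does otherwise cannot be told apart. The other 17 of the 21 samples are not analysed here.

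Galectins are made in the cytosol and leave the cell without a signal peptide. Outside the cell they cross-link branched N-glycans and O-glycans of surface receptors, and on T cells several of them are known to dampen signalling or to promote cell death. Inside the cell, galectin-3, galectin-8 and galectin-9 bind glycans exposed on damaged lysosomes. Lgals1 and Lgals3 encode proteins with a single carbohydrate-recognition domain, that of galectin-3 joined to a long N-terminal tail, whereas Lgals4, Lgals8 and Lgals9 encode tandem-repeat proteins that join a pair of such domains. Lgals3bp encodes a secreted glycoprotein ligand of galectin-3 and is not itself a galectin.

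The libraries, named here by the number in their column heading, had divisors of 5240362 (shLuc 2), 6133046 (shLuc 3), 4346709 (shCTCF 2) and 5768563 reads (shCTCF 3), as recovered from the RPKM values. One read on a model of 1000 bases was worth 0.163 to 0.23 RPKM. Ctcf, the target, lay at 49.0 and 50.9 RPKM in shLuc and at 26.5 and 26.4 RPKM in shCTCF. All 13 T cell markers with a row of their own exceeded the filter of a mean of 1 RPKM. Markers of other cells that express galectins were few: 3 of 19 myeloid, 1 of 14 epithelial and 2 of 13 stromal markers passed. Those that passed were Itgam, Cd68 and Fcer1g (myeloid), Elf3 (epithelial) and Pdgfrb and Acta2 (stromal). Acta2, Fcer1g and Elf3 had shLuc means of 69.4, 36.4 and 11.5 RPKM. Listed at 0 in all 4 libraries were, among others, Cd14, Emr1 and Cebpa (myeloid), Epcam, Cdh1 and Krt8 (epithelial) and Col3a1 and Postn (stromal).

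Lgals9 encodes galectin-9, a tandem-repeat galectin inducible by interferon and known as a ligand of the inhibitory receptor Tim-3. It stood at 152.7 and 146.9 RPKM in the shLuc libraries and at 99.2 and 93.1 RPKM in the shCTCF libraries. Both shCTCF values were below both shLuc values, and the group means (149.8 ± 4.14 against 96.2 ± 4.32 RPKM, SD, n = 2 each) lay 53.6 RPKM apart. The shCTCF mean was 0.642 times the shLuc mean. The fitted log2 change was −0.63 (standard error, SE, 0.08). Here and below, log2 changes are shCTCF minus shLuc from limma on log2(RPKM + 1), a scale that understates changes of low genes. The row joins transcripts NM_001159301 and NM_010708, so that a shift between these forms cannot be seen. Its level amounted to 800 and 901 reads per 1000 bases of model in shLuc and to 431 and 537 in shCTCF. The authors' deposited table of changed genes gives Lgals9 a log2 fold change of −0.65 at a log2 mean CPM of 7.53 (reads scaled to depth but not to length), from the same libraries. In bulk RNA, fewer cells that express a gene and less RNA per cell cannot be told apart.

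Upstream sequence is shown for Lgals9 and Lgals3bp, the tested members whose groups did not overlap, and for Lgals3, which was close to silent. In each, the 250 bases before the RefSeq gene start (build GRCm38.p6, while the expression files use mm9) are written 5′ to 3′ on the strand of the gene. Capitals mark a match to GAAANNGAA, a core of interferon-stimulated response elements, searched on both strands. The windows are chr11:78984925-78985174 (minus strand) for Lgals9, chr11:118401960-118402209 (minus strand) for Lgals3bp, and chr14:47373610-47373859 (plus strand) for Lgals3.
Lgals9: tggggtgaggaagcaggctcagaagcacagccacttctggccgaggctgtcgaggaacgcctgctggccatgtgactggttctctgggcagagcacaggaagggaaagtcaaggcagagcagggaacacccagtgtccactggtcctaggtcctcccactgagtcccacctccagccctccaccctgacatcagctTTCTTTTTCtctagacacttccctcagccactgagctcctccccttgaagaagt
Lgals3bp: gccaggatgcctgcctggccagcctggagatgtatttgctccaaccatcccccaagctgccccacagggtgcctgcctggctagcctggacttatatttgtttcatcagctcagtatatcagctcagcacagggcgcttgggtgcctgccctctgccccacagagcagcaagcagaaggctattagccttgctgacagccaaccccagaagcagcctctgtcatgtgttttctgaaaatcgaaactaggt
Lgals3: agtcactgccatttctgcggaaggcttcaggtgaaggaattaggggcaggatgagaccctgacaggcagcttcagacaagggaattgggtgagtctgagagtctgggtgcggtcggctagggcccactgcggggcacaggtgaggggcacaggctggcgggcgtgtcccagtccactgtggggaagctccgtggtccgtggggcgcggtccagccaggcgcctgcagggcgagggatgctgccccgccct
The capitals in Lgals9 start 54 bases before the gene start, on the opposite strand, and a second match starts 16 bases after it. Windows of 300 bases (250 before and 50 after the start) were matched by symbol for 5 of the 6 genes, all but Lgals1. The motifs were chosen after the values were seen. The other 4 windows (Lgals3bp, Lgals3, Lgals4 and Lgals8) held no exact match. Near the end of the Lgals3bp sequence, however, the letters aaaatcgaa differ from GAAANNGAA in the first letter only. Near matches of this kind were not searched for in any window, so Lgals9 and Lgals3bp are not set apart by the exact search. Over all 32851 promoter windows of that length, 8.56% held at least 1 match and 0.624% held 2 or more. A match to AGGNGGC, part of the CTCF motif, was found in the windows of Lgals4 and Lgals8 and in 29.4% of all windows, and not in that of Lgals9. The matches found did not overlap each other in the Lgals9 window, and a match describes letters only.

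Among the windows, that of Lgals3 was the richest in CpG, with 18 CpG and 67% GC, although Lgals3 had the lowest RNA level of the 6 genes. Lgals9, Lgals4, Lgals8 and Lgals3bp had 4, 4, 6 and 3 CpG, against a median of 7 over all windows.

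**Figure D1:**
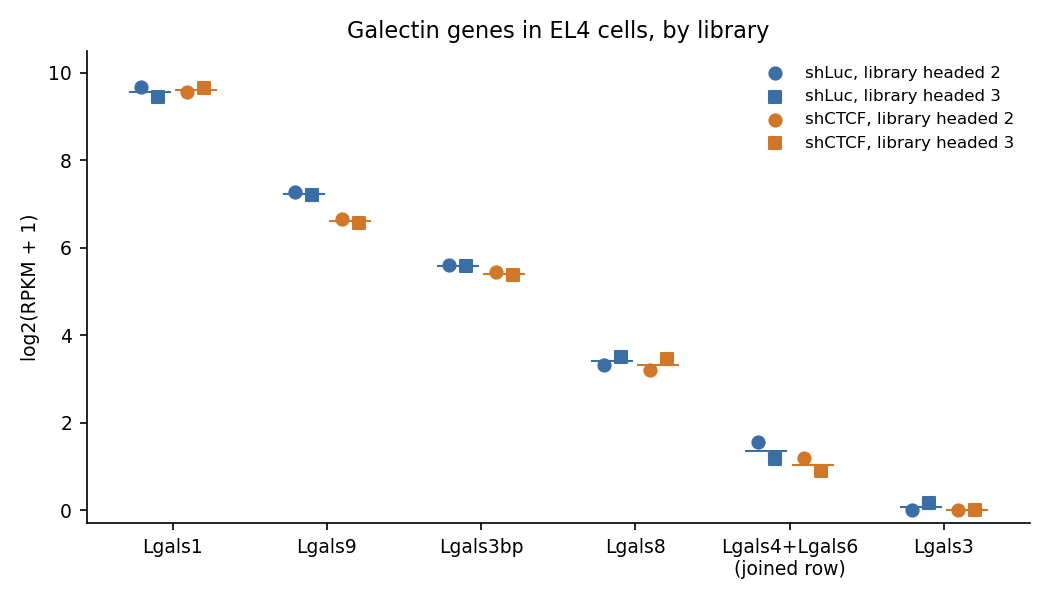
Level of each galectin gene as log2(RPKM + 1) on the vertical axis, by gene on the horizontal axis. Points are single libraries (2 shLuc, 2 shCTCF) and lines are group means on this scale. The 2 groups of Lgals9 stand clearly apart (99.2 and 93.1 against 152.7 and 146.9 RPKM), and the family was selected on this fall. Those of Lgals3bp (42.7 and 40.2 against 47.4 and 46.6 RPKM) do not overlap either, by a small margin. Both shCTCF libraries were below both shLuc libraries in 19.9% of all tested genes. Levels between genes span from Lgals1 near 756 RPKM to Lgals3 at or near 0.

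Lgals1, galectin-1, a homodimeric galectin that binds CD45 and CD43 and is known to trigger death of activated T cells, was the most abundant member. It lay at 815.8 and 695.6 RPKM in shLuc and at 748.8 and 801.3 RPKM in shCTCF, and it ranked between 28 and 35 of all symbols in each library. The shCTCF values fell inside the range of the shLuc values, so the groups overlapped. The log2 change was 0.04 (SE 0.09), and it was negative under 3 of 10 alternatives, −0.02 under quantile normalization among them. These levels rest on 3420 and 3413 reads in shLuc and on 2604 and 3698 reads in shCTCF, on a model of 800 bases. The 95% Poisson intervals, which cover counting error only, ran from 788.7 to 843.6 RPKM in shLuc 2 and from 672.5 to 719.4 RPKM in shLuc 3. The libraries of the same hairpin thus differed by more than counting error. The RefSeq table lists a pseudogene copy, Lgals1-ps1, and no source used here says how reads that match both were counted, so the level is uncertain to that extent.

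Lgals3bp was intermediate, at 47.4 and 46.6 RPKM in shLuc and at 42.7 and 40.2 RPKM in shCTCF. Both shCTCF values were lower than both shLuc values, but by a small margin, and the shCTCF mean was 0.883 times the shLuc mean (log2 change −0.18, SE 0.08). The reads behind them numbered 538 and 619 in shLuc and 402 and 503 in shCTCF. The counting intervals of neighbouring libraries overlapped: 43.0 to 50.4 RPKM in shLuc 3 and 38.6 to 47.0 RPKM in shCTCF 2.

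Lgals8, galectin-8, which marks damaged endosomes and lysosomes for autophagy, was a low-level gene. It stood at 8.95 and 10.3 RPKM in shLuc and at 8.15 and 9.99 RPKM in shCTCF. The groups overlapped, and the log2 change was −0.08 (SE 0.13). Leaving out shLuc 3 or shCTCF 2 turned its sign, to 0.01 and 0.05.

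The joined row of Lgals4 and Lgals6, galectins best known from the gut epithelium, lay near the filter. Its values were 1.93 and 1.25 RPKM in shLuc and 1.28 and 0.843 RPKM in shCTCF, equal to 10.1, 7.64, 5.56 and 4.86 reads per 1000 bases. The shCTCF 2 value lay above that of shLuc 3, so the groups overlapped (log2 change −0.32, SE 0.23, and −0.53 with a pseudocount of 0.1). Lgals3, galectin-3, a marker of macrophages and many epithelia, was listed at 0 in 3 libraries and at 0.118 RPKM in shLuc 3. If that value is a single read, the model is 1379 bases long, and 3 reads, the limit that a count of 0 allows, would equal 0.377 to 0.5 RPKM in the 3 libraries at 0. No fold is given.

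The order of the levels was Lgals1, Lgals9, Lgals3bp, Lgals8, Lgals4 with Lgals6, and Lgals3, and it held in every library. No neighbours in that order overlapped over the 4 libraries: the lowest Lgals9 value was 93.1 RPKM and the highest Lgals3bp value 47.4 RPKM. The distance between Lgals1 and Lgals9 was wider in the shCTCF libraries. Lgals1 RNA per length was 5.34 and 4.74 times that of Lgals9 in the shLuc libraries and 7.55 and 8.61 times in the shCTCF libraries. In the summed RPKM of the 6 rows, Lgals9 made up 14.9% and 16.3% in shLuc and 11.02% and 9.85% in shCTCF. Lgals1 made up 79.5%, 77.2%, 83.2% and 84.8% in the same order of libraries. The rank of Lgals9 among all symbols went from 393 and 428 to 755 and 835. These ratios rest on the contrast that chose the family and carry no test.

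Of the 5 rows that passed the filter, 1 (Lgals9) was called lower in limma at a Benjamini-Hochberg adjusted p below 0.05 and 0 were called higher. The Lgals9 call was lost under 4 of 9 alternatives: without the filter on low values and without shLuc 2, shLuc 3 or shCTCF 3. In the fit over all genes 1.29% of 9898 were called, 0.596% lower and 0.697% higher. In 2 of the 5 (Lgals9 and Lgals3bp) both shCTCF libraries were below both shLuc libraries, a pattern that 19.9% of all tested genes had, and in 0 of 5 both were above, against 24.1% of all genes. The median log2 change of the 5 rows was −0.18 and that of all tested genes 0.01. Since the family was selected on this contrast, these counts describe it and show nothing further. Among 744 genes with a mean of 100 RPKM or more Lgals9 had the lowest log2 change. Among 1833 genes with 50 RPKM or more it ranked 4, after Ccr9, Hoxd8 and Cpa3. Both limits were set after the values were seen, and the ranks rest on the fall that selected the family. Cpa3 (116.5 and 127.6 RPKM in shLuc, 71.3 and 73.6 in shCTCF, log2 change −0.74) lay just under the upper limit. The lowest place of Lgals9 thus depended on that limit.

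**Figure D2:**
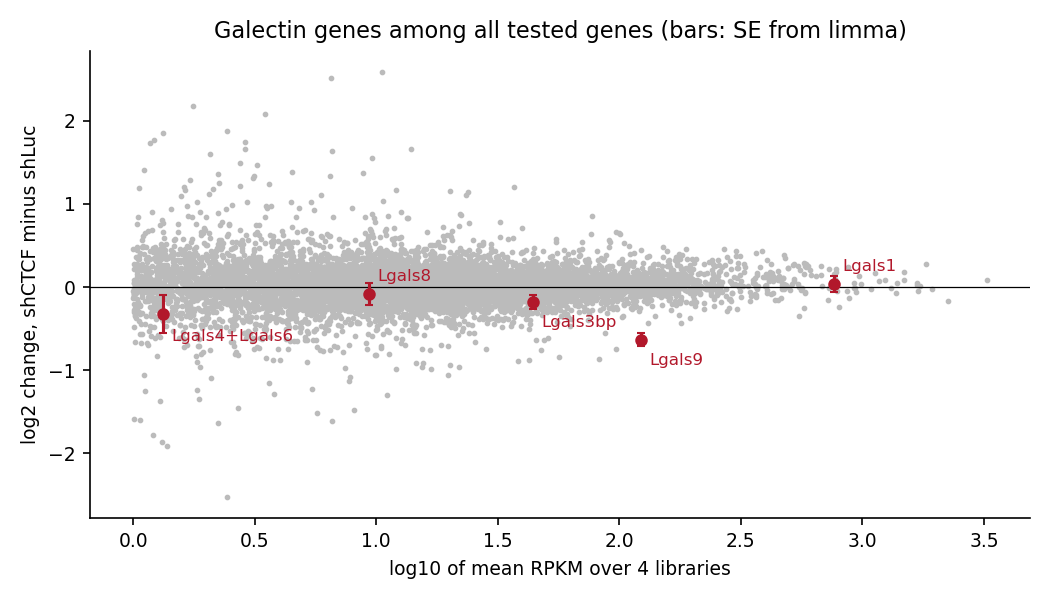
Log2 change (shCTCF minus shLuc, vertical axis) against the log10 of the mean RPKM over the 4 libraries (horizontal axis) for 9898 tested genes (grey) and the 5 tested galectin rows (red, with SE bars). Lgals9 at −0.63 lies below the other galectins and below all other genes with a mean of 100 RPKM or more, and Lgals1 at 0.04 lies near 0. The family was selected on the fall of Lgals9, and the limit of 100 RPKM was set after the values were seen.

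The genes whose values ran most like those of Lgals9 were Chst1, Ptprk and Ddn. Likeness was the root mean square difference in log2(RPKM + 1) over the 4 libraries after each gene was centred on its mean. It was 0.03, 0.04 and 0.04 for these genes, against a median of 0.34 over all tested genes. They were picked as the smallest values, so their distance from the median was given in advance. The profile they match is the contrast that selected the family. In library order (shLuc 2, shLuc 3, shCTCF 2, shCTCF 3), Chst1 rested on 33, 37, 13 and 15 reads. Ddn rested on 43, 47, 17 and 23 reads and Ptprk on 136, 161, 70 and 79. Whether the likeness exceeds counting error was not tested. Chst1, a sulfotransferase that acts on galactose of keratan sulfate, lay at 2.35 and 2.25 RPKM in shLuc and at 1.12 and 0.97 RPKM in shCTCF. Ptprk, a receptor tyrosine phosphatase, went from a mean of 4.23 to 2.41 RPKM. Ddn, dendrin, went from a mean of 2.12 to 1.06 RPKM. All 3 are far lower than Lgals9, so that on this scale they match it with larger folds (0.453, 0.571 and 0.498 times shLuc), and none was called in limma.

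Genes beside the galectin genes were compared, as CTCF is known for separating neighbouring genes. The 3 protein-coding genes with a row on each side came from the RefSeq gene order of GRCm38.p6, which gave 35 distinct rows, Lgals7 among them. Of these, 30 were tested, with 1 called lower and 0 higher in limma, against 0.596% and 0.697% of all tested genes. Around Lgals9, 0 of 5 tested neighbours were called, and their log2 changes ran from −0.24 to 0.11. On one side lie Nos2, the inducible nitric oxide synthase, which was below the filter, then Lyrm9 (−0.24, SE 0.13) and Ccnq (−0.06, SE 0.10). On the other side lie Ksr1 (in a joined row, −0.20, SE 0.11), Wsb1 (0.11, SE 0.10) and Nf1 (0.11, SE 0.11). Lgals9 at −0.63 was thus lower in change than each of its 5 tested neighbours. That difference was not tested, and it was nearly given in advance, since the family was selected on the fall of Lgals9.

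The called neighbour lies near Lgals3bp, with Cant1 (log2 change −0.18, SE 0.10) between them. This called neighbour was the joined row of C1qtnf1, which encodes a secreted C1q/TNF-related protein, and Gm11747. It fell from 7.40 and 7.27 RPKM to 4.41 and 3.71 RPKM (log2 change −0.72, SE 0.13, adjusted p = 0.047 in limma). The groups did not overlap. The call was lost without the filter on low values and without any single library, with log2 changes from −0.84 to −0.62 over 9 alternatives. Timp2, an inhibitor of matrix metalloproteinases on the other side of Lgals3bp, had 3.53 and 4.10 RPKM against 2.60 and 2.44 RPKM and did not pass (adjusted p = 0.24 in limma). Past Timp2 lie Usp36 (0.03, SE 0.10) and Cyth1 (0.12, SE 0.09), and past C1qtnf1 lies Engase (−0.30, SE 0.16), none of them called. Neighbours of Lgals1, Lgals3, Lgals4 and Lgals8 had log2 changes between −0.20 and 0.06 and none was called.

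**Figure D3:**
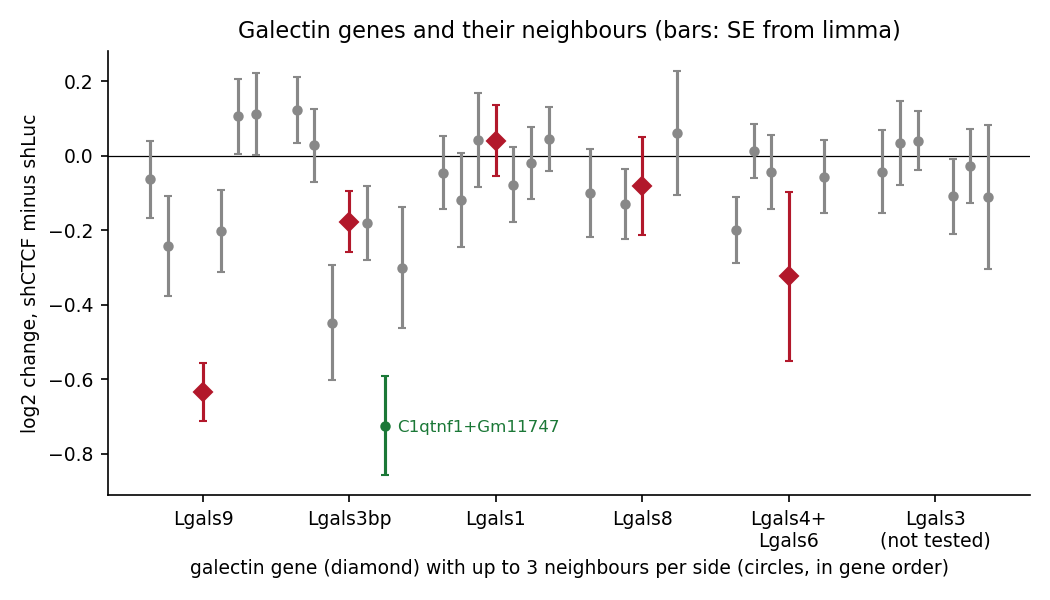
Log2 change (shCTCF minus shLuc, vertical axis) of each tested galectin row (red diamonds) and of its tested neighbours (circles, in gene order along the horizontal axis), with SE bars from limma. Lgals9 at −0.63 lies below all of its tested neighbours, and the family was selected on this fall. The row of C1qtnf1 and Gm11747 near Lgals3bp (green) was the neighbour that was called.

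Of 6 further galectin and galectin-like genes, 4 had a row of their own, and 0 of those 4 passed the filter in EL4. Lgals6, also among the 6, shares with Lgals4 the joined row given above, which passed. Lgals12 was listed at 0 throughout, as was the row that joins Lgals2 to Cdc42ep1. Lgals7, a galectin of stratified epithelia, rested on 1 and 2 reads in shLuc and on 1 and 5 reads in shCTCF, too few for a fold.

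Galectins act through glycoprotein receptors, and of 28 such receptors 17 were tested, with 0 called higher and 1 called lower in limma, where 0.596% of all tested genes were called lower. The list's median log2 change was −0.03, with 9 negative and 8 positive. An unadjusted p below 0.05 in limma was found for 5 of the 17, against 14.1% of all tested genes. Itgal, the αL chain of the integrin LFA-1, fell from 50.1 and 49.6 RPKM to 37.4 and 35.2 RPKM (log2 change −0.45, SE 0.08, adjusted p = 0.046). That call was lost under quantile normalization, without the filter on low values and without any single library. The log2 change of Itgal ran from −0.49 to −0.40 over 9 alternatives. Of the receptors ascribed to galectin-9, named after their values were seen, Cd44 and P4hb were tested and not called, and Havcr2 was not tested. Havcr2, which encodes Tim-3, was below the filter, at 0.35 and 0.18 RPKM in shLuc and 0.507 and 0.573 RPKM in shCTCF. Cd44, the hyaluronan receptor, lay at 58.5 ± 3.21 and 64.7 ± 2.37 RPKM, and P4hb, a protein disulfide isomerase, at 158.2 ± 4.52 and 169.1 ± 0.0187 RPKM (SD, n = 2 each). Among receptors of galectin-1, Ptprc (CD45) lay at 380.6 ± 23.7 and 349.6 ± 2.94 RPKM and Spn (CD43) at 55.7 ± 5.67 and 60.6 ± 5.86 RPKM, while Cd7 was at or near 0. Cd2, a further galectin-1 receptor, lay at 27.2 and 25.5 RPKM in shLuc and at 18.9 and 20.2 RPKM in shCTCF, with no overlap, and did not pass (log2 change −0.41, SE 0.09, adjusted p = 0.086 in limma).

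Enzymes that build or mask galectin ligands were mostly not called, which holds for most tested genes, as 1.29% of all were called in limma. Of 28 genes of N-glycan branching and galactose capping, 21 were tested and 0 were called, 2 having an unadjusted p below 0.05, which 14.1% of all tested genes had. Their median log2 change was −0.06. The pair with the highest levels was Fut8, the core fucosyltransferase (75.8 ± 20.3 and 60.6 ± 7.38 RPKM), and Mgat2, a branching N-acetylglucosaminyltransferase (59.0 ± 0.487 and 63.1 ± 2.05 RPKM). Of 18 genes of sialylation and O-glycan synthesis, which cap galactose or shape its carriers, 13 were tested. In that list 0 were called higher and 1 lower (0.596% of all tested genes were called lower), with a median of −0.10. In limma 2 of the 13 had an unadjusted p below 0.05. St3gal2, a sialyltransferase acting on core O-glycans and gangliosides, fell from 46.2 and 45.5 RPKM to 32.8 and 33.0 RPKM (log2 change −0.46, SE 0.08, adjusted p = 0.041 in limma). Its call was lost without the filter on low values and without any single library, with log2 changes from −0.48 to −0.45 over 10 alternatives.

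The response to damaged lysosomes, in which galectins serve as sensors, had 20 of 24 genes tested and 0 called in limma (3 at an unadjusted p below 0.05, against 14.1% of all tested genes), with a median of 0.00. Vcp, an ATPase that extracts ubiquitinated proteins, lay at 101.3 ± 2.40 and 97.3 ± 3.39 RPKM, and Sqstm1, the autophagy receptor p62, at 89.4 ± 5.69 and 94.2 ± 3.97 RPKM. Calcoco2, the receptor that galectin-8 recruits, was listed at 0 in all libraries.

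Lgals9 and Lgals3bp are known to be induced by interferon, so the interferon response is given beside them. Of 40 such genes 28 were tested, with 1 called higher and 0 lower, against 0.697% and 0.596% of all tested genes. The median log2 change was 0.15, with 18 positive and 10 negative, while 53.3% of all tested genes were positive. An unadjusted p below 0.05 in limma was found for 6 of the 28, against 14.1% of all tested genes. Mx1, an antiviral GTPase, rose from 7.39 and 7.93 RPKM to 14.9 and 14.4 RPKM (log2 change 0.86, SE 0.10, adjusted p = 0.0095 in limma). Its call was lost without the filter on low values and without shLuc 2, shLuc 3 or shCTCF 2. Its log2 change ran from 0.81 to 0.93 over 9 alternatives. The log2 changes of Lgals9 (−0.63) and Lgals3bp (−0.18) had the opposite sign to that of Mx1 and to the list's median. They had the same sign as the 10 negative genes of the list, Oas3 (−0.35) and Usp18 (−0.22) among them, while 18 were positive. No difference between Lgals9 or Lgals3bp and the list was tested. Of 13 tested T cell markers 1 was called lower and 0 higher in limma, against 0.596% and 0.697% of all tested genes. In the same fit 9 of the 13 had an unadjusted p below 0.05, which 14.1% of all tested genes had. The log2 change was negative in 12 of the 13, against 46.7% of all tested genes, with a median of −0.23, and the summed level was 2893 and 2785 RPKM in shLuc against 2506 and 2470 RPKM in shCTCF. The one called was Bcl11b, a T lineage transcription factor (log2 change −0.58, SE 0.10, adjusted p = 0.035 in limma). Its call was lost without the filter on low values and without any single library (log2 change from −0.64 to −0.52 over 9 alternatives). Summed myeloid markers, mostly Fcer1g, were 36.4 and 47.0 RPKM against 47.7 and 49.1 RPKM. Cd68, a lysosomal protein of macrophages and one of 3 tested myeloid markers, lay at 1.70 and 1.46 RPKM in shLuc and at 3.65 and 3.10 RPKM in shCTCF (log2 change 0.76, SE 0.17, adjusted p = 0.089 in limma). Summed epithelial markers, mostly Elf3, were 13.9 and 10.8 against 11.3 and 13.3 RPKM. Stromal markers, mostly Acta2, were 72.7 and 68.8 against 53.2 and 58.1 RPKM. The part of these marker values in the Lgals9 values was not tested.

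**Figure D4:**
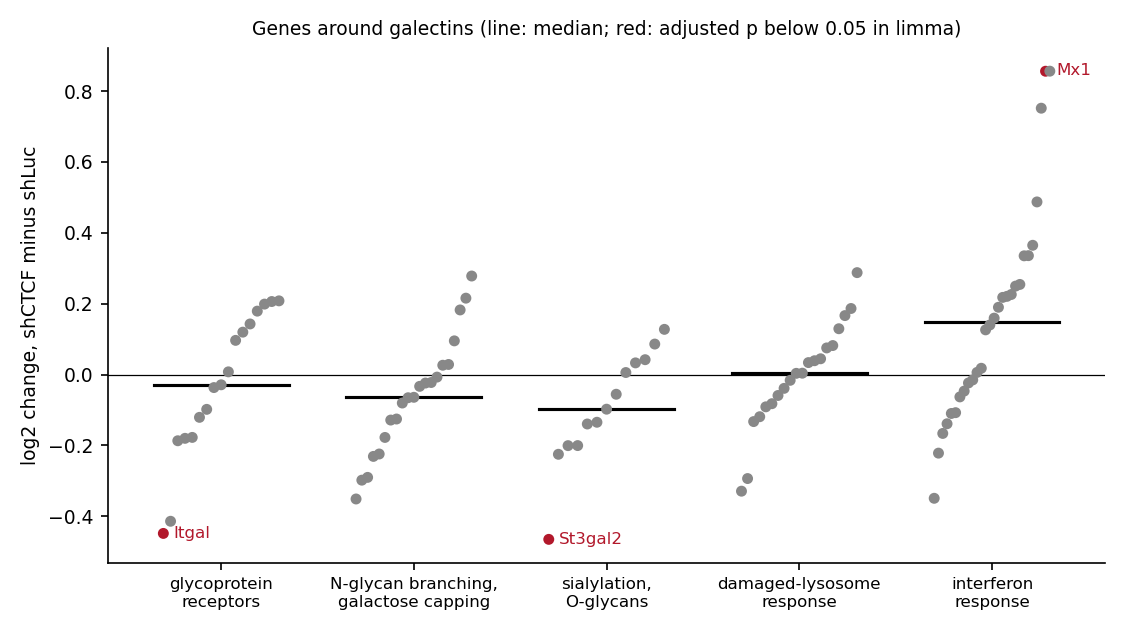
Log2 change (shCTCF minus shLuc, vertical axis) of each tested gene in 5 lists around galectins (horizontal axis, genes sorted within a list). Lines are list medians, and red points are genes with an adjusted p below 0.05 in limma. List medians lie between −0.10 and 0.15, and the called genes are Itgal, St3gal2 and Mx1.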

How the data were processed

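Poly(A) RNA of EL4 cells was sequenced by the authors and aligned with Bowtie2 to mm9, per the submitters' processing notes. No source used here names the read counter, the annotation release or the use of strand. RPKM values were deposited by the authors for 22119 rows, and a row can join overlapping genes or the transcripts of a gene. A second table by the authors, with 435 rows, holds per the file headers a p-value and FDR, the log2 of the mean CPM and a log2 fold change for genes they list as changed. Columns were assigned to hairpins by name. Their numbers (2 and 3) differ from those of the sample titles. No per-sample column was left unused. The deposited Hi-C domain lists were not used, since gene positions in mm9 were not given.

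The row with the highest mean was kept per symbol, and the 9898 genes that averaged at least 1 RPKM were tested with limma 3.58.1 in R 4.3.3 on log2(RPKM + 1), with a trend and no covariate. P-values were adjusted by Benjamini-Hochberg over all tested genes (threshold 0.05). Whole reads were recovered for 98.2% of 7035 single-transcript rows (relative tolerance 3e-10), as the smallest whole numbers that gave the ratios between libraries, so they can be too low. In simulated RPKM, 96.5% of 2789 rows came back exactly. On simulated data of 6890 genes with a dispersion of 0.00108, limma called 43.5% of the genes altered 1.5-fold. It called 84.5% of those altered 2-fold and 94% of those altered 4-fold. Calls of unaltered genes were, in that order, 7 of 94, 13 of 182 and 13 of 201. Python 3.11.15, numpy 2.4.6, pandas 2.3.3 and matplotlib 3.10.9 were used. Promoter sequences and gene order came from RefSeq (GRCm38.p6).

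The members and the 10 gene lists were chosen with earlier results of these data known. Named genes were all members, Ctcf, neighbours of a called member, up to 4 called genes per list (otherwise its 2 most highly expressed) and the 3 genes most like Lgals9. Neighbours of other members and receptors of galectin-9 and galectin-1 were named after their values were seen. Alternatives were another pseudocount, other filters, quantile normalization, leaving out each library, a replicate block and limma-voom on recovered reads.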

Additional observations from a re-analysis of the deposited data

How the results depend on the processing

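Over the alternatives, the log2 change of Lgals9 ran from −0.68 to −0.59 and was negative in 9 of 9, and that of Lgals3bp from −0.22 to −0.14 (10 of 10 negative). That of Lgals4 with Lgals6 ran from −0.53 to −0.13 (8 of 8 negative), Lgals8 from −0.21 to 0.05 (7 of 9 negative) and Lgals1 from −0.07 to 0.16 (3 of 10 negative). None moved by more than 1 SD between libraries, but most settings could not show such a move. The filters and the block leave the log2 change as it is. Leaving out 1 of 2 libraries shifts a group mean by less than the SD of the pair. Only the pseudocount, quantile normalization and, where run, limma-voom could have moved it further. Row sums per symbol were not run, since each of these genes has 1 row. The number of genes called in limma depended more on the setting. It was 128, but 0 without the filter on low values (1619 at an unadjusted p below 0.05), 373 with limma-voom on 6890 rows with recovered reads, and 0 to 78 without 1 library. It was 0 without shLuc 2 (1034 at an unadjusted p below 0.05), 2 without shLuc 3, 78 without shCTCF 2 and 58 without shCTCF 3. Such a fit has fewer degrees of freedom, and its lone library is assumed to vary like the other group. With the replicate number as a block 507 genes were called. The numbers are not known to pair cultures (correlation of deviations 0.165 over 9898 genes, 2 pairs). Under the replicate block the called genes were 2 of 17 receptors, 1 of 20 in the damaged-lysosome list and 3 of 28 in the interferon list. Over all tested genes that setting called 507 of 9898. Without the filter on low values 0 were called in the receptor, sialylation and interferon lists, where 0 of all 21844 genes were called. Under quantile normalization 0 receptors were called, against 104 of 9898 tested genes. Limma-voom called 0 receptors and 2 interferon genes, against 373 of 6890 rows. Itgal and Mx1, whose rows join transcripts, were not in that fit, so it could not call them. Without 1 library 0 were called in the receptor and sialylation lists, and 0 to 1 in the interferon list. The cause of these shifts was not tested. With 2 libraries per group and 4346709 to 6133046 reads, rows of a few reads such as Lgals7 and Lgals3 allow no comparison.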
